A study of Mus musculus with 4 samples.

Results

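Upstream promoter peaks are the XBP1s-bound intervals that lie in an annotated promoter but are centred 200 to 1000 bp before the transcription start site (TSS) and are narrower than 1000 bp. They were chosen by the annotation class, the distance to the start and the width from first to last base, as the authors' annotated peak table gives them. The rule kept 440 of 4890 listed peaks (8.998%, exact 95% interval 8.21 to 9.84), which is 17.1% of the 2571 promoter peaks. The remaining 2131 promoter peaks, centred closer to the start or beyond it or at least 1000 bp wide, are called other promoter peaks. Position and width therefore chose the peaks and are described below with no test.

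The study mapped by chromatin immunoprecipitation and sequencing (ChIP-seq) where XBP1s sits on DNA in natural killer (NK) cells taken from mouse spleen with a commercial isolation kit. It has 2 XBP1s immunoprecipitations and 2 inputs, the input being 2% of the chromatin before precipitation. The cells of every library came from mice that the design text calls Il15Tg Xbp1f/f, with the labels giving the strain as C57BL/6, and every library was made after 1 h with IL-15 at 50 ng/ml. All groups therefore carry the Il15 transgene and the floxed Xbp1 alleles, no Cre is named for them, and neither the promoter of the transgene nor the age of the mice was stated for them. Libraries from untreated cells or from cells lacking XBP1 were not analysed here.

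The deposited values are 1 combined list with no column of any single library. A peak therefore has no replicate error, sequencing depth is unknown, and a listed interval may be a whole peak or only a part common to separate calls. The authors' score is 0 for every peak, so the interval width is the only quantity per peak, and it is not a signal strength. Shares below carry exact Clopper-Pearson 95% intervals, which cover counting error only, and since neighbouring peaks and genes are not independent replicates no p-value is given. Of 79 marker genes of B and plasma, T, myeloid and erythroid cells, none had an upstream promoter peak and 7 had a listed peak of any kind (8.86%). Of 76 genes on the NK effector and NK identity lists together, 4 had an upstream promoter peak (5.26%) and 28 any listed peak (36.8%). Over all 21900 protein-coding genes these shares were 1.89% and 17.8%.

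XBP1s is the protein made when the ER stress sensor IRE1 removes an intron from the Xbp1 messenger RNA. It is a basic leucine zipper factor that binds sites with an ACGTG core, among them the unfolded protein response element (UPRE). It also binds the ER stress response element (ERSE), whose letters as searched here need not contain that core. XBP1s is best known for driving genes of protein folding, glycosylation and export. A promoter between 2 genes that point away from each other is called head to head, and one stretch of DNA can then serve both genes. In NK cells IL-15 acts through its receptor chains, JAK kinases and STAT factors, and through mTOR, to keep the cells alive.

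The first 4 sequences are shown because a site that XBP1s or related factors are known to bind falls inside the listed interval. Each is the stretch that the interval shares with the 250 bases before the start, written 5′ to 3′ in the direction of the gene, from RefSeq on GRCm38.p6, the assembly of mm10. Capitals mark the UPRE (TGACGTGG), the ERSE (CCAAT, 9 bases of any kind, then CCACG), the cAMP response element or CRE (TGACGTCA), the core ACGTG, the CCAAT box and the GC box GGGCGG, each on either strand. The Ero1lb stretch is chr13:12565633-12565841 on the plus strand, that of Vcp chr4:43000508-43000757 on the minus strand, that of Hbs1l chr10:21295729-21295978 on the plus strand and that of Dusp1 chr17:26508588-26508722 on the minus strand.
Ero1lb: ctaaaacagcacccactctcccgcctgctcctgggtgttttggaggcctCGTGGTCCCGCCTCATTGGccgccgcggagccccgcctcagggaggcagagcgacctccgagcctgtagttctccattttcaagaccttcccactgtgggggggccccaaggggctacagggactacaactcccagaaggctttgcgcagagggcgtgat
Vcp: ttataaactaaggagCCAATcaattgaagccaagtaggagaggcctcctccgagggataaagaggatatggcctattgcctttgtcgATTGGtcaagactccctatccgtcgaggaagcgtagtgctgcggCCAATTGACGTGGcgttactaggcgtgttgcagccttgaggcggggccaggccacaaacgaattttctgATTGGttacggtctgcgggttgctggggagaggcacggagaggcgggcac
Hbs1l: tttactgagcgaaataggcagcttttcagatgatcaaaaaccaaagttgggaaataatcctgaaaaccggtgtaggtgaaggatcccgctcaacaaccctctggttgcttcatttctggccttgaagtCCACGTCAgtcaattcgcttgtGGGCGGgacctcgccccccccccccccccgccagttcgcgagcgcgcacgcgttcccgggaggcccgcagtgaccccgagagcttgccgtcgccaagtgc
Dusp1: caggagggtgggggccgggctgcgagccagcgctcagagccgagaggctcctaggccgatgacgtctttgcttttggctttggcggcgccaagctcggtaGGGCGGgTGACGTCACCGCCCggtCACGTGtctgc

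The run of capitals in Ero1lb, the gene of an oxidase that recharges the disulfide-forming enzymes of the ER, reads as an ERSE on the opposite strand, and it was the 1 ERSE found. In Vcp, the gene of the ATPase that pulls misfolded proteins out of the ER membrane, a CCAAT box ran straight into a UPRE. Hbs1l, the gene of a factor that rescues stalled ribosomes, held its UPRE on the opposite strand. Dusp1, a phosphatase that switches off MAP kinases, held a CRE between GC boxes, followed by CACGTG, the E-box, which contains the ACGTG core.

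The next 3 are shown because the genes act in NK cell killing or in survival and growth signalling, and they differ in base make-up. Pim1, at chr17:29490535-29490757 on the plus strand, encodes a survival kinase of the same family as Pim2, and this stretch also lies within the annotated RNA gene Gm26885. Prf1, at chr10:61297586-61297831 on the plus strand, encodes perforin, the pore protein of cytotoxic granules. Rheb, at chr5:24842445-24842611 on the minus strand, encodes the GTPase that switches on mTORC1. Capitals mark the same motifs as above.
Pim1: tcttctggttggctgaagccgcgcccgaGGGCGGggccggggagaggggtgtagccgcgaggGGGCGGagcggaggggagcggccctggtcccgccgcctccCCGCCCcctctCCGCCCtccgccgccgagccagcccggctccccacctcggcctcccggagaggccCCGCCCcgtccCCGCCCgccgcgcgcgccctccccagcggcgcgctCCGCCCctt
Prf1: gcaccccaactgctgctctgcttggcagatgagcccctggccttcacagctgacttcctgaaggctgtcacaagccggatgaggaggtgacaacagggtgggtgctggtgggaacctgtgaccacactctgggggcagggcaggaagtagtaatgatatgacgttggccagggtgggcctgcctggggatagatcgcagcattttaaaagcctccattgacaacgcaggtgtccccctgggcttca
Rheb: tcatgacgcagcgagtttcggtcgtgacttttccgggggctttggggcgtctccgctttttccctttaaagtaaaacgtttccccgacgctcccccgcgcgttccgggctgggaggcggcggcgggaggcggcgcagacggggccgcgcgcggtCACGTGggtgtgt

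Pim1 showed 7 GC boxes and no ACGTG core in its 223 bases. Prf1 showed none of the marked motifs in its 246 bases. Rheb showed a single E-box near the end that faces the gene. The letters outside these stretches were not read, so a motif elsewhere in the same intervals was not looked for.

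The last 2 are shown because their intervals cover the starts of both genes of a head-to-head pair. Atp6v1d, a subunit of the proton pump of lysosomes, is shown at chr12:78861639-78861888 on the minus strand. Yme1l1, a protease of the mitochondrial inner membrane, is shown at chr2:23156255-23156504 on the plus strand. Capitals mark the same motifs as above.
Atp6v1d: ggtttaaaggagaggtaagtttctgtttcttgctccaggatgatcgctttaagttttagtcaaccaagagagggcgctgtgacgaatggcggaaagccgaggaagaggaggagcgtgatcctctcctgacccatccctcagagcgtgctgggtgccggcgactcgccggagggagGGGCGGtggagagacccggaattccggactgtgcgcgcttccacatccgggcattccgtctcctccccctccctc
Yme1l1: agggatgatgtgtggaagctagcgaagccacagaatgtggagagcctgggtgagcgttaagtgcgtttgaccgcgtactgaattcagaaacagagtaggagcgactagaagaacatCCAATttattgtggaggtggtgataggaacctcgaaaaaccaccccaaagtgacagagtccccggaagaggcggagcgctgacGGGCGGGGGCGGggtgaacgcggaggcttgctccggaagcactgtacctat

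Neither stretch contained the ACGTG core. Atp6v1d showed 1 GC box, and Yme1l1 showed a CCAAT box and 2 GC boxes that run into each other. The partner genes are Eif2s1 and Mastl, described with the other pairs below.

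Upstream promoter peaks were densest near the limit that faces the start. Their distances ranged from -997 to -200 bp, negative being upstream, with a median of -328.5 bp (quartiles -478 and -251), while other promoter peaks had a median distance of 5 bp (quartiles -74.5 and 67). A total of 187 centres (42.5%) fell 200 to 299 bp upstream, 154 (35.0%) fell 300 to 499 bp upstream and 99 (22.5%) farther out. Widths ran from 1 to 994 bp with a median of 398 bp (quartiles 269.8 and 580.2), against a median of 407 bp (quartiles 281 and 630) for other promoter peaks, which include the wide ones. The median width was 404, 421 and 441 bp in the 3 bands from 200 to 499 bp upstream, 347.5 bp at 500 to 699 bp and 317 bp beyond. The interval itself reached the start in 101 upstream promoter peaks (22.95%) and in 1890 other promoter peaks (88.7%), a difference that the rule on distance sets.

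**Figure D1:**
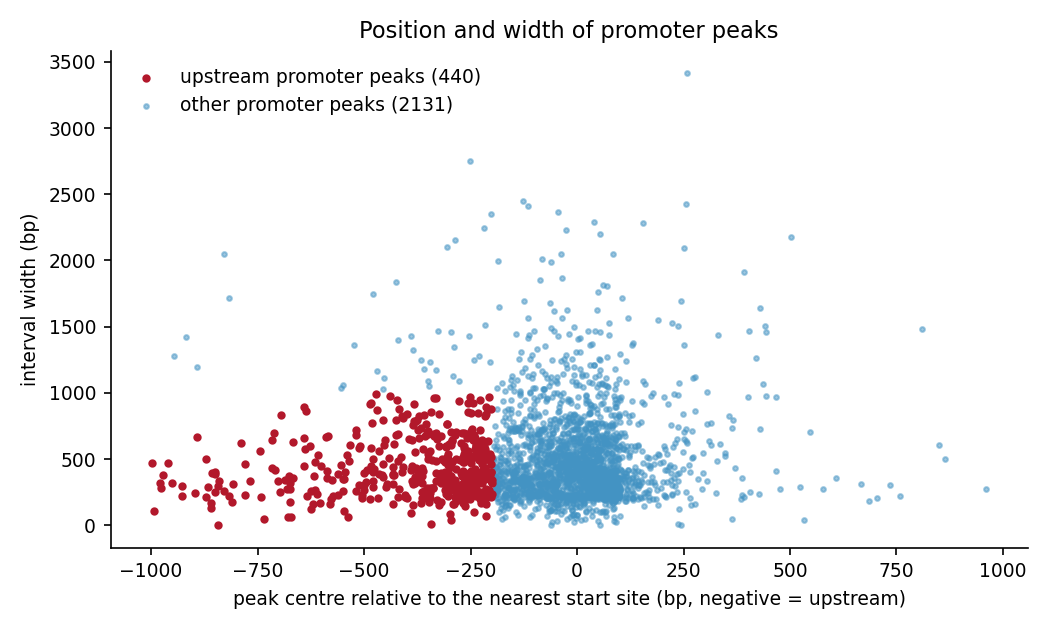
Centre of each promoter peak relative to the nearest start (horizontal, bp, negative is upstream) against the width of its listed interval (vertical, bp); each point is 1 peak, dark for the 440 upstream promoter peaks and light for the 2131 other promoter peaks. The upstream promoter peaks fill the block between -1000 and -200 bp below 1000 bp and are densest at its right edge, where 187 lie 200 to 299 bp before the start.

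Just inside the limit of 200 bp were Fzd5, Hnrnpa0 and Snora26, each at a distance of -200 bp and with widths of 345, 237 and 322 bp. Just outside it were Ero1l at -199 bp and Ubr4 and Rabgef1 at -198 bp. The farthest were Bhlhe40 at -997 bp, Chad at -993 bp and Fbxw7 at -979 bp, with no promoter peak beyond -1000 bp. Just under the width limit were Ubald1 with 994 bp, Ankhd1 with 976 bp and Kdm6a with 972 bp, and just over it were Cox20 with 1028 bp, Lnpep with 1035 bp and Gm10433 with 1051 bp. In all, 37 promoter peaks in the same distance window were 1000 bp or wider. The plot of position and width shows no gap at -200 bp, and with the limit at -100 bp the rule would keep 787 peaks, so the group is a range of positions.

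The authors' distance depends on which start they annotated. RefSeq promoter starts were available for the nearest gene of 353 upstream promoter peaks, and there the centre lay within 10 bp of the authors' distance for 337 (95.5%) and still 200 to 1000 bp upstream for 347 (98.3%). Of the others, 2 lay less than 200 bp from the start, 2 more than 1000 bp upstream and 2 at least 200 bp downstream.

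The 440 peaks named 437 genes, because Hnrnpa0, Usp9x and Rrm2 each had 2. Hnrnpa0, an RNA-binding protein, had intervals of 237 bp at -200 bp and of 174 bp at -811 bp. Usp9x, a deubiquitinase, had intervals of 72 bp at -214 bp and of 168 bp at -603 bp. Rrm2, a subunit of the enzyme that makes deoxynucleotides, had one of 484 bp at -331 bp and one of a single base at -843 bp. The nearest gene was protein-coding for 418 of 440 upstream promoter peaks and 2024 of 2131 other promoter peaks, and the rest of the upstream ones belonged to 20 genes of other non-coding RNAs and 2 of small nucleolar RNAs.

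The widest intervals served genes of many kinds. Kdm6a, a histone demethylase on the X chromosome, had an interval of 972 bp at -206 bp, and Utp3, which works in the assembly of the small ribosomal subunit, one of 967 bp at -251 bp. Pigl, an enzyme of GPI anchor synthesis in the ER, had 961 bp at -331 bp, Fndc3b 958 bp at -335 bp, and Hsd17b12, a fatty acid elongation enzyme of the ER, 950 bp at -227 bp. Ehd1, an endocytic recycling factor, had 949 bp at -423 bp, the phosphate transporter gene Slc20a1 940 bp at -277 bp, and the lipid phosphatase gene Mtmr4 927 bp at -245 bp. Ankrd17 had 927 bp at -256 bp, and Ccne1, the gene of cyclin E, 924 bp at -483 bp. Ubald1 and Ankhd1, at the width limit above, complete the widest 12. Pigl faces Ncor1, a transcriptional corepressor gene, whose start lay 1109 bp away and outside the interval. Of these 12, Ubald1 and Ankrd17 had another listed interval, of 107 and 233 bp, within 1000 bp after the start.

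At the narrow end, 10 upstream promoter peaks (2.27%, interval 1.10 to 4.14) were under 100 bp, against 33 other promoter peaks (1.55%, interval 1.07 to 2.17). Besides the single base at Rrm2 they included 9 bp at Prkaca, the catalytic subunit of protein kinase A, 41 bp at Enoph1, 50 bp at Il2rb and 63 bp at Polr2a, the largest subunit of RNA polymerase II. The step that left intervals this narrow is not recorded.

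Neighbouring genes were looked for first as starts near the peak centre. A second protein-coding start lay within 1000 bp of the centre of 31 of 426 upstream promoter peaks (7.28%, interval 5.00 to 10.2), against 500 of 2077 other promoter peaks (24.1%, interval 22.3 to 26.0). In the authors' own annotation, the promoter named was that of another gene than the nearest one in 14 upstream promoter peaks (3.18%) and in 417 other promoter peaks (19.6%). Of the protein-coding genes, 27 were the nearest gene of both kinds of peak, and they stay in both groups here and below. Counted by gene, 21 of 342 genes with an upstream promoter peak (6.14%, interval 3.84 to 9.23) had an opposite protein-coding start within 1000 bp upstream, against 372 of 1705 genes with another promoter peak (21.8%, interval 19.9 to 23.9). Over all 17492 protein-coding genes with a known start the share was 8.48%.

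This difference is partly built into the rule. A peak is assigned to its nearest start, so where both annotations place the starts alike, a centre at least 200 bp upstream of that start is at least as far from any other, and a pair of facing starts needs to be 400 bp or more apart to hold such a centre between them. The second starts here came from RefSeq and not from the authors' annotation, and 2 peaks, those of Arpc4 and Tssk6, lay closer than 200 bp to one. With pairs of starts 400 to 1000 bp apart, the shares were 15 of 342 genes with an upstream promoter peak (4.39%, interval 2.48 to 7.13) and 87 of 1705 genes with another promoter peak (5.10%, interval 4.107 to 6.26), with intervals that overlap, against 1.86% of all genes.

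All 31 second starts were on the opposite strand. By the RefSeq starts, the genes pointed away from each other at 19 of these peaks and their first parts overlapped at 12. At 17 the centre lay between both starts. These are counts of peaks, and the pair of Tssk6 and Ndufa13 enters with a peak of each gene. The starts were a median of 481 bp apart (3 to 1605). The interval covered both starts at 4 peaks, the nearest start at 11 including these 4, and neither at 20.

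Among the pairs covered at both starts was Atp6v1d with Eif2s1, whose starts were 434 bp apart. Eif2s1 encodes the translation initiation subunit that PERK phosphorylates in the unfolded protein response. The interval of 640 bp, at chr12:78861527-78862166, was centred 208 bp upstream of Atp6v1d and 226 bp from the start of Eif2s1, close to midway. With starts this close, the rule on distance leaves only centres near midway between them. Yme1l1 with Mastl, a mitotic kinase gene, had starts 481 bp apart under an interval of 879 bp, centred 201 bp upstream of Yme1l1 and 280 bp from Mastl. Arpc4, of the actin-branching complex, and Tada3, of histone acetyltransferase complexes, had starts 275 bp apart under an interval of 540 bp. That interval was centred 266 bp upstream of Arpc4, to which it was assigned, and 9 bp from the RefSeq start of Tada3. Hnrnpd and 4930524J08Rik had starts 3 bp apart and overlapping first parts, under an interval of 763 bp centred 354 bp upstream of Hnrnpd.

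Other intervals sat between the starts and covered 1 or neither of them. Ncapd2, of the condensin complex, and Mrpl51, of the mitochondrial ribosome, had starts 614 bp apart with an interval of 604 bp that covered the start of Ncapd2. Ubqln4, a shuttle to the proteasome, and Lamtor2, a scaffold of mTORC1 at lysosomes, had starts 765 bp apart and an interval of 736 bp that covered the start of Ubqln4. Rnf31, of the linear ubiquitin ligase, and Psme2, of the proteasome activator, had starts 641 bp apart and an interval of 495 bp. Zbtb8os, the archease that assists the ligase joining the spliced Xbp1 exons, and Rbbp4, a histone-binding protein, had starts 598 bp apart and an interval of 497 bp, centred 275 bp from Zbtb8os and 323 bp from Rbbp4, which covered neither. The centre lay 295 and 319 bp from the starts of Ncapd2 and Mrpl51, and 367 and 398 bp from those of Ubqln4 and Lamtor2. It lay 230 and 411 bp from those of Rnf31 and Psme2. Thus 3 of these 4 intervals were centred close to midway. The rule on distance partly sets this, since it keeps only centres at least 200 bp from the nearest start.

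Narrower intervals lay between starts as well. Mplkip and Sugct had starts 648 bp apart with an interval of 396 bp between them, Hnrnph3 and Pbld2 663 bp apart with 221 bp, and Dcaf6 and Mpc2, a subunit of the mitochondrial pyruvate carrier, 797 bp apart with 493 bp. Ift140 and Cramp1l had starts 856 bp apart with an interval of 500 bp, and Neurl4 and 2810408A11Rik 829 bp apart with 399 bp. None of these 5 intervals covered a start. Enoph1, of methionine salvage, and Hnrnpdl had starts 772 bp apart with an interval of 41 bp.

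Where first parts overlap, the upstream side of one gene is the body of the other. Such pairs were Ctdnep1 with Elp5 (starts 67 bp apart, interval of 266 bp), Dnajc17 with Zfyve19 (75 bp, interval of 558 bp), Pard6a with Acd (80 bp, interval of 484 bp), Rab2b with Tox4 (249 bp, interval of 382 bp) and Otud4 with Gm51579 (229 bp, interval of 832 bp). In 1 pair that was head to head by the RefSeq starts, the centres lay outside these starts. Tssk6 and Ndufa13, a subunit of respiratory complex I, had RefSeq starts 164 bp apart and an upstream promoter peak each, of 238 and 672 bp, with 613 bp between the intervals. The authors' distance for the Ndufa13 peak was -336 bp, and it was -874 bp from the RefSeq start.

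**Figure D2:**
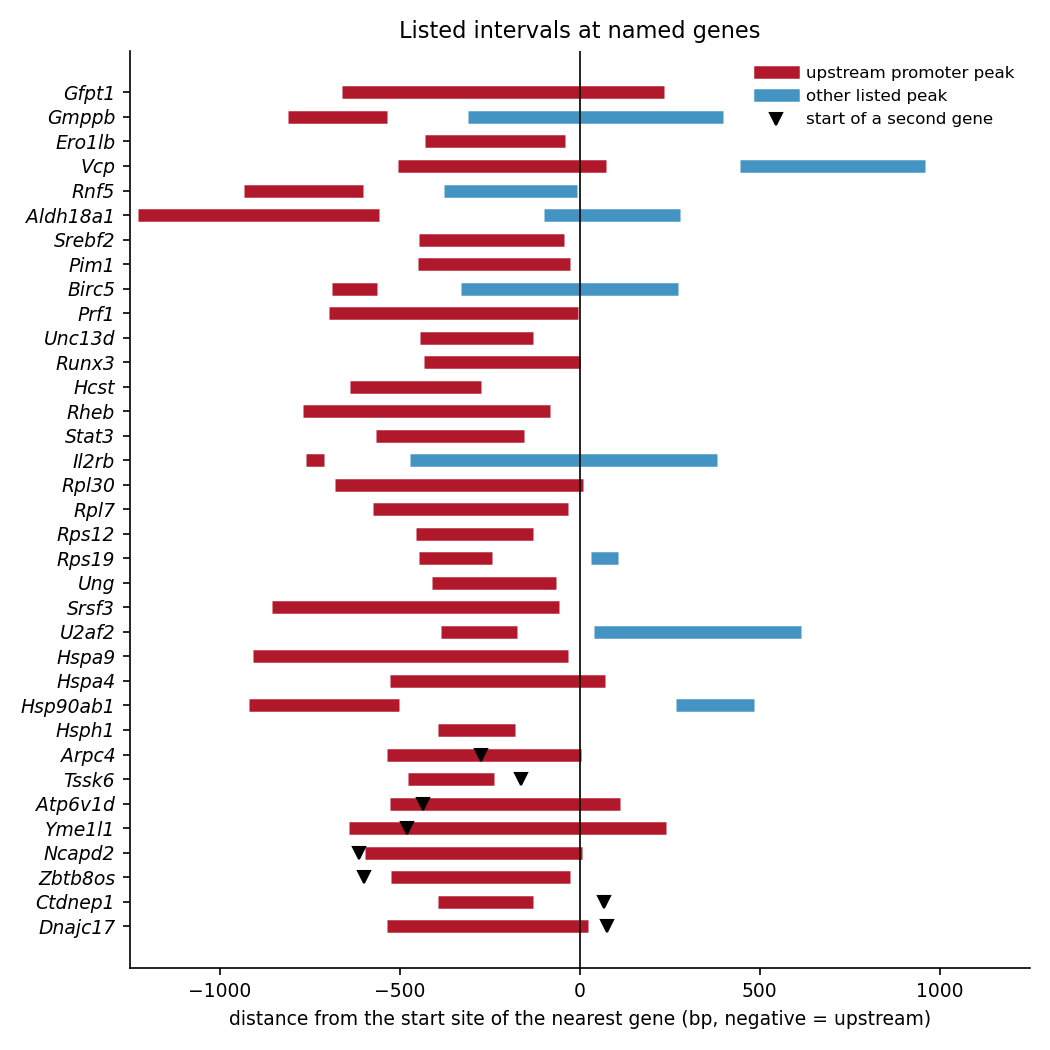
Listed intervals at named genes, drawn at the authors' distance from the start of the nearest gene (vertical line at 0, horizontal axis in bp, negative is upstream). Dark bars are upstream promoter peaks, light bars other listed peaks of the same gene, and triangles the start of a second gene; bars at Gfpt1, Vcp, Hspa4, Atp6v1d and Yme1l1 cross the start, while those at Gmppb, Rnf5, Birc5, Il2rb and Hsp90ab1 stand apart from a further interval nearer to it.

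Genes with an upstream promoter peak often had a further listed peak. This was so for 124 of 440 upstream promoter peaks (28.2%, interval 24.0 to 32.6) and 245 of 2131 other promoter peaks (11.5%, interval 10.2 to 12.9). A further peak centred from less than 200 bp before to 1000 bp after the same start accompanied 71 upstream promoter peaks (16.1%, interval 12.8 to 19.9) and 104 other promoter peaks (4.88%, interval 4.01 to 5.88). A peak centred upstream leaves room for another at the start, which a peak at the start does not, so these shares are not of equal opportunity. Any other listed interval lay within 1000 bp of the edges of 86 upstream promoter peaks (19.55%) and 198 other promoter peaks (9.29%). The gap was a median of 384.5 bp (213 to 996) for the upstream promoter peaks, and the smallest gap anywhere in the list was 200 bp.

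Il2rb, the receptor chain through which IL-15 signals, is one such gene. Its upstream interval of 50 bp at -735 bp stood 239 bp from an interval of 853 bp centred 45 bp before the start, and intervals of 1309 and 287 bp lay at -15548 and -17116 bp. Birc5, which encodes survivin, had 126 bp at -625 bp beside 602 bp centred 29 bp before the start. Dusp1 had 254 bp at -242 bp and a further 388 bp centred 421 bp after the start, in its first exon. At each of these 3 genes the upstream interval was the narrower one. Among members of the gene lists below with a further interval near the start, it was narrower at Gmppb, Rnf5 and U2af2. It was wider at Vcp, Aldh18a1, Hsp90ab1 and Rps19.

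The gene lists give a measure of which functions the upstream position held. Over all 21900 protein-coding genes, 1.89% were the nearest gene of an upstream promoter peak and 9.14% of another promoter peak. The 4 lists of ER and secretory genes had 5 of 157 genes at upstream promoter peaks (3.18%) and 74 at other promoter peaks (47.1%). The upstream share is near that over all genes, while the share at other promoter peaks is far above its own. Over all 22 lists, 29 of 772 genes (3.76%) had an upstream promoter peak and 199 (25.8%) another promoter peak. With so few genes per list, the counts are 0 to 4 and no list was tested. The lists do not hold every gene of a class, so each count, a 0 included, is of the listed genes only.

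Of the listed ER and secretory genes, those with an upstream promoter peak were Gfpt1, Gmppb, Ero1lb, Vcp and Rnf5. Gfpt1, the entry enzyme of the hexosamine pathway that feeds glycosylation, had an interval of 892 bp at chr6:87042188-87043079, centred at -213 bp and running past the start. Gmppb, which makes GDP-mannose, had 275 bp at -673 bp and a further 708 bp centred at 45 bp. Ero1lb had 388 bp at -236 bp and no other listed peak. Vcp had 578 bp at -215 bp, across the start, and a further 513 bp at 702 bp in its first intron. Rnf5, a ubiquitin ligase of the ER membrane, had 332 bp at -767 bp and a further 370 bp at -193 bp. Outside the lists, and picked after their values were seen, March6, a ubiquitin ligase of ER-associated degradation, had 522 bp at -242 bp, Herpud2 528 bp at -229 bp and Gnpnat1, of the hexosamine pathway, 395 bp at -246 bp. None of 51 listed genes of ER to Golgi transport and none of 15 listed sensors and factors of the unfolded protein response had one, though 21 and 5 of them had another promoter peak. Neither Xbp1 nor Pim2 had an upstream promoter peak.

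Among metabolic genes, Srebf2, the master transcription factor of cholesterol synthesis, had an upstream promoter peak of 405 bp at -245 bp. Of 32 genes of the PERK branch and amino acid supply 1 had one, Aldh18a1, a proline synthesis enzyme, with 669 bp at -893 bp beside 376 bp at 90 bp.

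The genes of NK cell function and of IL-15 signalling came next. The NK effector genes were Prf1, with 693 bp at chr10:61297139-61297831, centred at -351 bp and ending 5 bases before the start, and Unc13d, which primes granules for release, with 316 bp at -287 bp, 2 of 30 genes. Prf1 was also the nearest gene of an interval of 511 bp at 37031 bp. The NK identity genes were Runx3, a transcription factor of cytotoxic lymphocytes, with 432 bp at -216 bp, and Hcst, the adaptor of the activating receptor NKG2D, with 362 bp at -456 bp, 2 of 46 genes, the same number as had another promoter peak. Runx3 also had 4 listed intervals between genes, of 208 to 462 bp, at distances of -50649 to 53780 bp. The IL-15 and JAK-STAT list had 3 of 43 genes, Rheb with 685 bp at -426 bp, Stat3 with 412 bp at -361 bp and Il2rb. The survival list had 2 of 32, Birc5 and Pim1.

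Pim1 had an interval of 423 bp at chr17:29490335-29490757, centred at -239 bp and ending short of the start. A further 454 bp lay at 1279 bp, in an intron, and 434 bp at 7965 bp, annotated as intergenic. No other interval of Pim1 was listed.

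Genes of the protein and RNA machinery completed the lists. Of 50 listed cytosolic ribosomal protein genes, Rpl30 (689 bp at -335 bp), Rpl7 (542 bp at -304 bp), Rps12 (325 bp at -293 bp) and Rps19 (204 bp at -345 bp) had an upstream promoter peak, while 19 had another promoter peak. Rps19 was the 1 of the 4 with a further interval at the start, of 73 bp. Rpl13a, not on the list, had 684 bp at -242 bp, across the start. None of 76 listed mitochondrial ribosomal protein genes did as the nearest gene, and Mrpl51 did as the partner of Ncapd2. Of 43 splicing genes there were 3, Srsf3 with 797 bp at -456 bp, Hnrnpd, and U2af2 with 212 bp at -280 bp beside 576 bp at 328 bp. Ung, which removes uracil from DNA, had 344 bp at -238 bp, though by its RefSeq start the centre lay 483 bp downstream. It was the 1 of 51 DNA repair genes with an upstream promoter peak. None of 40 listed oxidative phosphorylation genes and none of 31 listed proteasome genes had one, though 7 of each list had another promoter peak. Unlisted genes of both kinds did, among them Ndufa13, Ndufb11 with 163 bp at -621 bp, Atp5d with 262 bp at -829 bp and the proteasome gene Psmd5 with 244 bp at -266 bp. The first parts of Ndufb11 and Rbm10 overlap, with starts 116 bp apart. The centre of the Ndufb11 interval lay 737 bp from the start of Rbm10.

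The cytosolic chaperone list had the highest share at upstream promoter peaks, 4 of 23 genes (17.4%), against 7 genes (30.4%) at other promoter peaks. They were Hspa9, an HSP70 of mitochondria, with 873 bp at -470 bp, Hspa4 with 596 bp at -228 bp, Hsph1 with 214 bp at -287 bp, the last 2 nucleotide exchange factors for HSP70, and Hsp90ab1, an HSP90, with 417 bp at -710 bp beside 218 bp at 376 bp. Only Hspa4 of these had an interval across its start. The list is short, and it was 1 of 22 looked at.

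**Figure D3:**
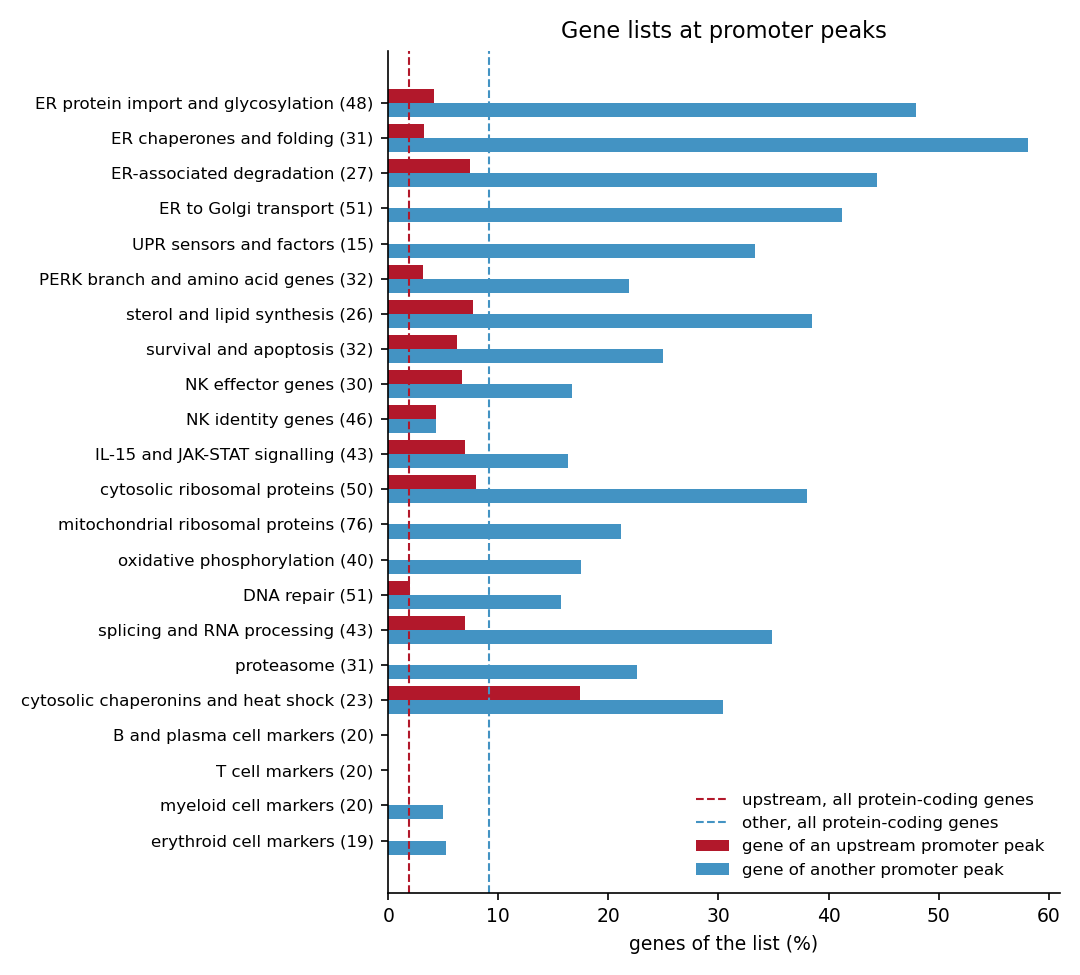
Share of the genes of each list (horizontal, %, number of genes in brackets) that were the nearest gene of an upstream promoter peak (dark bars) or of another promoter peak (light bars); dashed lines give the same shares over all 21900 protein-coding genes, 1.89% and 9.14%. The 4 ER and secretory lists reach 41.2% to 58.1% at other promoter peaks and 0 to 7.41% at upstream ones, and cytosolic chaperonins and heat shock genes have the tallest dark bar at 17.4%.

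Upstream promoter peaks lay on every chromosome from 1 to 19 and on X, most on 11 (48, 10.9%, against 10.0% of other promoter peaks) and 7 (45, 10.2%, against 7.88%). As a share of the promoter peaks of a chromosome they ran from 11.3% on 19 to 23.8% on X, where there were 10.

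The sequence before the start was read where a RefSeq promoter was available, in 351 distinct windows of 250 bases for genes with an upstream promoter peak, 1797 for genes with another promoter peak and 21263 over all protein-coding starts. Median GC content was 65.2% (quartiles 59.2 and 72.0), 61.6% (56.4 and 67.2) and 55.6% (47.2 and 64.0) in that order. The median ratio of observed to expected CpG was 0.875, 0.842 and 0.53. Promoters with an upstream promoter peak thus had the highest median GC content of the 3 groups, and its part in the motif shares was not tested.

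The ACGTG core of XBP1s sites was in 27.6% of windows with an upstream promoter peak (interval 23.0 to 32.6), 31.9% with another promoter peak (29.7 to 34.1) and 17.8% of all. The full UPRE was in 3 windows (0.855%), against 35 with another promoter peak (1.95%) and 0.593% of all, and the ERSE in 1 (0.285%), against 6 (0.334%) and 0.132%. The ERSE-II (ATTGG, 1 base of any kind, then CCACG) was in 0 of 351, which allows a share of up to 1.05% by the exact interval, against 3 (0.167%). The CRE was in 1.71% (interval 0.630 to 3.68), 5.84% (4.80 to 7.03) and 1.92% of all. The ACGTG core lies within the UPRE and the E-box, so these counts overlap.

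Motifs of general promoter factors were counted in the same windows. The GC box was in 79.5% of windows with an upstream promoter peak (interval 74.9 to 83.6), 63.6% with another promoter peak (61.3 to 65.8) and 42.6% of all. The ETS motif CCGGAAG was in 10.8% (interval 7.78 to 14.6), 25.8% (23.8 to 27.9) and 8.98%. For both motifs, and for the CRE, the intervals of the 2 kinds of peak do not overlap, the GC box being higher and the other two lower at upstream promoter peaks. CCAAT was in 42.5%, 39.8% and 35.4%, NRF1 (GCATGCGC) in 3.42%, 6.29% and 2.93%, and YY1 (AAGATGGC) in 2.56%, 3.12% and 1.496%. The E-box was in 10.5%, 12.2% and 6.63%. RUNX (TGTGGT) was in 7.98%, 9.46% and 12.4%, and STAT (TTC, 3 bases of any kind, GAA) in 4.27%, 6.73% and 6.58%. T-box (AGGTGTGA) was in 0, 0.612% and 0.997%.

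The windows of 250 bases lie mostly closer to the start than the peak centres, so the same motifs were counted in what the intervals cover. In all, 255 intervals reached into the 250 bases, by a median of 184 bases, and 60 of them (23.5%) held the ACGTG core there. The UPRE was inside the interval at Vcp and Hbs1l, the ERSE at Ero1lb and the CRE at Oxsr1, Ubn2, Xpnpep3 and Dusp1. For the Xpnpep3 peak the authors' annotation named the promoter of another gene, St13. The 100 bases farthest from the start were covered whole by 193 intervals. The windows of other promoter peaks and of all starts were taken whether or not an interval covered them, so the groups are not alike. The core was in 14.0% of these (interval 9.43 to 19.7), in 11.6% of windows of other promoter peaks (10.1 to 13.1) and in 6.60% of all. The E-box was in 7.25% (interval 4.02 to 11.9), 3.90% (3.05 to 4.90) and 1.93% there. The ETS motif was in 4.15% (interval 1.81 to 8.00), 5.06% (4.10 to 6.18) and 1.83%. The GC box was in 29.5% (interval 23.2 to 36.5), 22.8% (20.8 to 24.8) and 13.1%. The CRE was in 0 of 193 (up to 1.89%), 0.501% (0.229 to 0.949) and 0.198%. For ETS, the GC box and the CRE, the intervals of both kinds of peak overlap in these 100 bases.

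**Figure D4:**
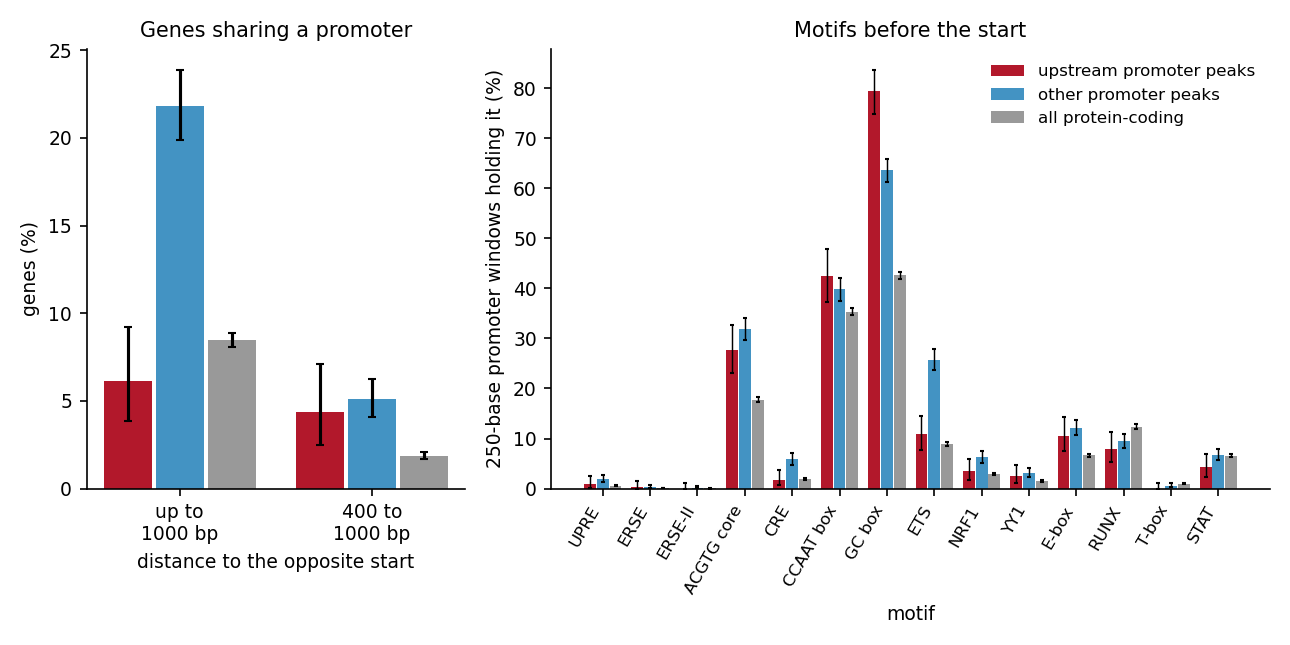
Left, share of protein-coding genes (vertical, %) with an opposite-strand start at the given distance upstream; right, share of 250-base windows before the start (vertical, %) that hold each motif. Bars are genes with upstream promoter peaks (dark, left of each group), with other promoter peaks (light) and all protein-coding genes (grey, in the right panel all protein-coding starts), with exact 95% intervals. Up to 1000 bp the pair share is higher with other promoter peaks (21.8%) than with upstream ones (6.14%) or over all genes (8.48%). At 400 to 1000 bp both kinds of peak come close (4.39% and 5.10%). In the 250-base windows ETS (10.8% and 25.8%) and the GC box (79.5% and 63.6%) stand apart.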

How the data were processed

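XBP1s ChIP-seq was measured in 2 XBP1s immunoprecipitations and 2 inputs of mouse NK cells, fixed in 1% formaldehyde for 10 min and read as 100 bp paired ends, per the labels' protocols. The authors deposited 1 peak table, which per the file header is HOMER annotation on mm10 of 1 combined interval set. Its start and end positions, distances, annotation classes and nearest genes are the authors' own, and the deposited score is 0 throughout. Per the submitters' processing notes the tools were HOMER (4.11 and 4.11.1), the peak caller MACS2 (2.2.7.1), the aligner Bowtie2 (2.4.5), and for reads FastQC (0.11.9) and Trim Galore (0.6.7). The threshold, the use of input and how calls were combined are not given in the sources used here.

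Width was end minus start plus 1. Nearest genes of all 440 peaks matched a RefSeq gene table of GRCm38.p6. Starts and strands came from RefSeq promoter windows covering 17492 of 21900 protein-coding genes, so second genes without a window were missed. Motifs were searched by exact letters on both strands of the 250 bases before a start. Of 775 entries in 22 gene lists, 774 matched; a gene counted when it was the authors' nearest gene. Shares have exact Clopper-Pearson 95% intervals. Planned use of CpG annotation was not possible, since no promoter peak carries such a label. The counting steps were tested on simulated data. The members and lists were chosen with earlier results of these data known. Named genes are the 12 widest peaks, the 20 with the nearest second start, list members (up to 8 a list), genes with 2 peaks, peaks at the limits, and Xbp1 and Pim2; Dusp1, Hbs1l, Oxsr1, Ubn2 and Xpnpep3 for their motifs, Prkaca and Polr2a for their width, and 7 unlisted genes of listed classes (March6, Herpud2, Gnpnat1, Rpl13a, Ndufb11, Atp5d and Psmd5), were added after their values were seen. One gene that the rule takes in is not reported here. Alternatives varied the distance window, the width limit, the second-gene rule, the other-peak rule and the sequence window. Software was SciPy 1.17.1 and NumPy 2.4.6 for intervals, pandas 2.3.3 for tables, matplotlib 3.10.9 for plots, on Python 3.11.15.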

Additional observations from a re-analysis of the deposited data

How the results depend on the processing

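Of 25 values recomputed under other settings, 13 stayed within the interval of the reported value or within 1.5 times the reported count, and 12 moved beyond it. The number of peaks, 440 as reported, was 253 with centres at -1000 to -300 bp, 787 at -1000 to -100 bp and 282 below 500 bp in width. The share with a second protein-coding start, 7.28% within 1000 bp, was 3.76% within 500 bp, 10.3% within 2000 bp, 15.3% with second genes of any type, 0.939% when that start had to lie inside the interval and, added after seeing the data, 16.1% with either end of a second gene in the full gene table, which gives no strand. The share of peaks whose gene has another peak was 28.2%, and 17.5% when that peak had to lie within 1000 bp of the start. The share with the ACGTG core was 27.6% in 250 bases. It was 14.0% in the 100 of these bases farthest from the start, where an interval covered them whole. That shorter window was added after seeing the data. The 29 list genes became 16 at -1000 to -300 bp and 18 below 500 bp, both added after seeing the data. Wider or narrower windows hold more or fewer peaks by construction.

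The authors' list has no library column, so leaving out a library, replicate error and depth were not assessed. No paired analysis was possible because the table holds 1 combined set of intervals. The CpG comparison was not run, since promoter peaks carry no CpG label, and motifs were not searched over whole intervals, since no genome sequence was used here; the overlap with the 250 bases took its place.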

Other observations

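Gene families outside the lists were counted by their symbols after the values had been seen, so these counts describe the list of peaks and support nothing. Over all 21900 protein-coding genes, 1.89% had an upstream promoter peak and 9.14% another promoter peak. Of 34 genes named as numbered lysine methyltransferases or demethylases (Kmt, Kdm, Setd), 7 had an upstream promoter peak (20.6%) and 4 another promoter peak (11.8%). They were Kdm3a (501 bp at -478 bp), Kdm4b (232 bp at -238 bp), Kdm6a, Kmt2a (430 bp at -216 bp), Kmt2d (284 bp at -977 bp), Kmt5a (157 bp at -384 bp) and Setd1a (642 bp at -388 bp). Of 4 Mxd and Mxi genes, which encode partners of MAX that oppose MYC, 3 had one and none had another promoter peak, with 212 bp at Mxd1, 641 bp at Mxd3 and 677 bp at Mxd4. Of 56 Usp deubiquitinase genes 6 had one (10.7%) and 9 had another promoter peak (16.1%), and of 37 Ube2 ubiquitin-conjugating genes 4 had one (10.8%) and 8 another (21.6%). Of 397 Zfp zinc finger genes 2 had one (0.504%), Zfp219 and Zfp36l1, and 60 another (15.1%). Of 56 Eif translation initiation factor genes 4 had one (7.14%) and 12 another (21.4%).

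Among the RNA genes, Neat1, the scaffold RNA of paraspeckles, had 594 bp at -307 bp, and Malat1, an abundant nuclear RNA, 287 bp at -867 bp. Among those with a microRNA as nearest gene, Mirlet7i on chromosome 10 had 699 bp at -712 bp and a further 297 bp at 554 bp, and Mir148a on chromosome 6 had 471 bp at -961 bp. For these the distance is to the annotated hairpin and not to the start of the primary transcript. Their mature sequences from RefSeq are shown to identify the arms, with the seed (bases 2 to 8) in capitals, and the seeds differ.
mmu-let-7i-5p: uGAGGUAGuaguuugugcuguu
mmu-miR-148a-3p: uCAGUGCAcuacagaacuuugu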
